A study of Drosophila melanogaster with 3 samples.

Results

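Weak promoter peaks of E(bx) in fruit fly embryos are called regions at start sites of genes that fell short of the reproducible set. They were taken from a relaxed list called on the pooled reads of 3 libraries, which holds background as well as peaks, so that a member is not by itself a binding site. Members were chosen by the position of their summit, the base of highest signal in a peak. It had to lie no more than 500 bp from a transcription start site (TSS) that is annotated for any gene, and more than 1000 bp from every summit of the reproducible set. That set is the optimal one of an analysis of irreproducible discovery rates (IDR). This gave 3247 peaks out of 29999 pooled peaks on 6 arms (X, 4, 2L, 2R, 3L and 3R), or 10.8%. The IDR set, though drawn from an analysis of repeatability between libraries, held exactly the 9708 pooled peaks of highest signal. The signal of the members was thus bounded by their choice and is given as a description only.

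The series holds 1 group of 3 biological replicates, each from a biosample of its own, and no other genotype, treatment or time was compared. Per the labels, they were whole Drosophila melanogaster embryos of 0 to 16 h, of both sexes pooled, from the transgenic strain E(bx)-GFP, which stably expresses E(bx) with GFP at its C terminus. The description gives the antibody as one against GFP and the antibody field gives E(bx). Whole embryos mix all cell types and stages of that window, so that fewer cells with bound protein and less bound protein per cell cannot be told apart. The replicate lists, too, are relaxed and include background by design. Depth per library is unknown, and intervals on shares hold counting error and nothing else. Control data were not analysed here.

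E(bx), or NURF301, is the scaffold and largest protein of the NURF complex, which slides nucleosomes with the ATPase Iswi as its motor. In flies the GAGA factor Trl recruits NURF at inducible and developmental promoters, and E(bx) also reads modified histone H3 tails. Broadly expressed fly genes often carry other promoter elements, among them the DRE bound by Dref and the motif bound by M1BP, while genes of restricted expression more often carry a TATA box and an initiator.

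The sequences that the results on promoter elements turn on are shown first. For each element but the TATA box, the strongest weak promoter peak outside 1 arm that held it and was found in all 3 library lists was taken. For the TATA box, the strongest such peak with the element on the gene's strand just upstream of the start site was taken, a choice made after the values were seen. Each line runs 5′ to 3′ on the strand of the nearest gene, is dm6 sequence from the RefSeq Release 6 genome, and has the element in capitals, which may be its reverse complement.
bowl, GAGA element, chr2L:3771678-3771754, plus strand: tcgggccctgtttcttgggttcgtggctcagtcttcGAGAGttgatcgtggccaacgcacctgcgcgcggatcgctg
CG46460, TATA box, chr3L:4227285-4227362, minus strand: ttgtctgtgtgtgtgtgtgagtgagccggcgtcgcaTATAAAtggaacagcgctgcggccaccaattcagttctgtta
CG46460, initiator, chr3L:4227255-4227332, minus strand: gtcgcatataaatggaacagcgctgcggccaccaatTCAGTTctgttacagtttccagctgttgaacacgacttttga
CG46460, CA repeat, chr3L:4227308-4227387, minus strand: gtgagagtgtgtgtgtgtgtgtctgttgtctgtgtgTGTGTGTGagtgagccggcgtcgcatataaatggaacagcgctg
dpp, Zelda site, chr2L:2451179-2451257, plus strand: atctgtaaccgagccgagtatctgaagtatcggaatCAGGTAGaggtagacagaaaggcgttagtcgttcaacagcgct
Cul6, DRE, chr3L:13011709-13011788, minus strand: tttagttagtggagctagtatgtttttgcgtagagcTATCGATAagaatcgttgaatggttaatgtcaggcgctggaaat
asRNA:CR43959, M1BP motif, chrX:10256391-10256470, plus strand: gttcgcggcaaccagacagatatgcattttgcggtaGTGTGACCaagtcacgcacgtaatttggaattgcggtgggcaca
Frmd5, Ohler motif 7, chr2L:10344406-10344485, plus strand: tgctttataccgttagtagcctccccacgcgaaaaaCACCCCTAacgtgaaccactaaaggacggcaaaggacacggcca
In CG46460, the overlapping lines show 3 elements around 1 start site: the TATA box began 24 bp upstream of it and the initiator was centred 8 bp downstream. The GAGA element of bowl was centred 16 bp downstream of the start site. The DRE of Cul6 was centred 64 bp upstream, and this peak was among the few weak promoter peaks that held one.

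The signal value of weak promoter peaks, written by the authors' peak caller on a scale that is not stated, ran between 27.6 and 155.9 with a median of 54.6 (quartiles 38.7 and 87.2). Reproducible promoter peaks had a median of 614, and weak peaks away from promoters, the other peaks more than 1000 bp from the reproducible set, had a median of 42.5. The IDR set held exactly the 9708 pooled peaks of highest signal, so that every member lies below that line by construction; promoter peaks below it but within 1000 bp of a reproducible summit are not members. Their width was 464 bp in 3200 cases (98.6%), against 613 (8.52%) of the 7196 reproducible promoter peaks. A q-value of at most 0.05 was reached by 1537 weak promoter peaks (47.3%), against 3734 (28.0%) of the 13343 weak peaks away from promoters, and 36.6% of all pooled peaks outside the reproducible set. The q-value comes from the same signal that bounded the members, and nothing is read from that difference. Annotated transposable elements held 15 of the weak promoter summits (0.462%), against 18 (0.25%) of the reproducible promoter summits and 207 (1.55%) of the weak summits away from promoters.

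The strongest members lay just under the line. The highest signal, 155.9, was at bowl, a zinc finger gene of the odd-skipped family (2L:3771625-3771868, summit 45 bp downstream of the TSS), where the libraries gave 29.3, 54.5 and 83.4 for replicates 1, 2 and 3. Frmd5, a FERM domain gene, had 155.7, and the libraries gave 40.02, 44.9 and 72.3. The peak at CG46460 had 155.2, with 21.7, 16.7 and 96.5. Its nearest start site is shared with ImpL2, the gene of a secreted insulin-binding protein. Each library's signal is on the scale of its own list, so that these values show presence and not a difference between libraries. The other genes among the 10 strongest were Bsg, a member of the immunoglobulin superfamily, CG17264, CG12730, the forkhead gene fd102C, the retinol dehydrogenase gene Rdh, CG34136 and the DNA glycosylase gene Smug, with 154.6 to 155.1. Of the 10, fd102C on chromosome 4 was found in replicate 3 alone, at a signal of 101.9, and the other 9 were in all 3 lists.

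At the limits of the rule, CG4733 and Egfrap had summits 500 bp upstream of their start sites and were members with signals of 117.6 and 76.2, while Treh and CG14770 at 501 bp were left out with 45.2 and 34.3. CG42674 and CG10859 lay 1001 and 1004 bp from a reproducible summit and were members with 54.4 and 28.8, while Cyp301a1 and CG14434 at 999 and 998 bp were left out with 56.3 and 70.3.

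The members were spread over all arms. There were 559 on 2L, 747 on 2R, 666 on 3L, 619 on 3R, 32 on 4 and 624 on X. Set against annotated start sites, this was 12.2 per 100 on 2L, 15.3 on 2R, 14.7 on 3L, 11.3 on 3R, 17.5 on 4 and 16.0 on X. They were not all separate: 1734 stood alone, 600 groups held 2 and 96 groups held 3 or more with neighbours within 1000 bp, which made 2430 groups at 2622 start sites. The nearest reproducible summit was at a median of 3689 bp (quartiles 2026 and 7794), and 600 members lay more than 10000 bp from one.

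Whether a weak promoter peak was also called in single libraries was read from each library's own list, matched within 200 bp of the summit. Neighbouring peaks could match the same library summit, as at CG17264, so that some library summits are counted more than once in these shares. These lists are not independent of the rule: the IDR set derives from them, and their reads are part of the pooled list. Their contrast with reproducible promoter peaks is thus partly set by the rule and is a description. Replicate 1 had a summit for 63.7% of the weak promoter peaks, replicate 2 for 62.9% and replicate 3 for 65.0%, a mean of 63.8% ± 1.03 (SD, n = 3). Weak peaks away from promoters were found at 46.3%, 46.9% and 60.2% in the same order of replicates, a mean of 51.1% ± 7.87 (SD, n = 3). Reproducible promoter peaks were found at a mean of 97.6% ± 0.368 (SD, n = 3). The replicates were alike for weak promoter peaks, and for weak peaks away from promoters replicate 3 stood above the other libraries.

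The share was higher at promoters in 3 of 3 libraries, by 17.4, 16.0 and 4.77 percentage points, a mean of 12.7 ± 6.93 (SD, n = 3; exact sign-flip permutation test over libraries, two-sided, p = 0.25). With 3 libraries 0.25 is the smallest p this test can give, and it cannot pass 0.05. Signal moved with this difference. Within 4 bins of equal number of the weak promoter peaks by signal, with the same limits applied to the weak peaks away from promoters, the mean differences were 6.33, 3.73, 3.59 and 0.435 points from the lowest bin to the highest, with exact permutation p of 0.5, 0.5, 0.5 and 1. Replicate 3 ran the other way in every bin, by -2.17, -4.30, -3.54 and -0.019 points.

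All 3 library lists held a summit for 997 weak promoter peaks, or 30.7% (95% Wilson interval 29.1 to 32.3). The share was 16.3% of weak peaks away from promoters (2181), 93.7% of reproducible promoter peaks, and 22.3% of all pooled peaks outside the reproducible set. Another 1186 members were in 2 lists, 856 in 1 and 208 in none. Of those in 1 list, 438 were in replicate 3, against 199 in replicate 1 and 219 in replicate 2. Of the members, all of which rank below 9708 in the pooled list by their choice, 144, 156 and 122 lay within the best 9708 peaks of replicates 1, 2 and 3, 48 did so in 2 libraries and 0 in all 3. Their median rank was 15132, 14832 and 16536 in replicates 1, 2 and 3.

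**Figure D1:**
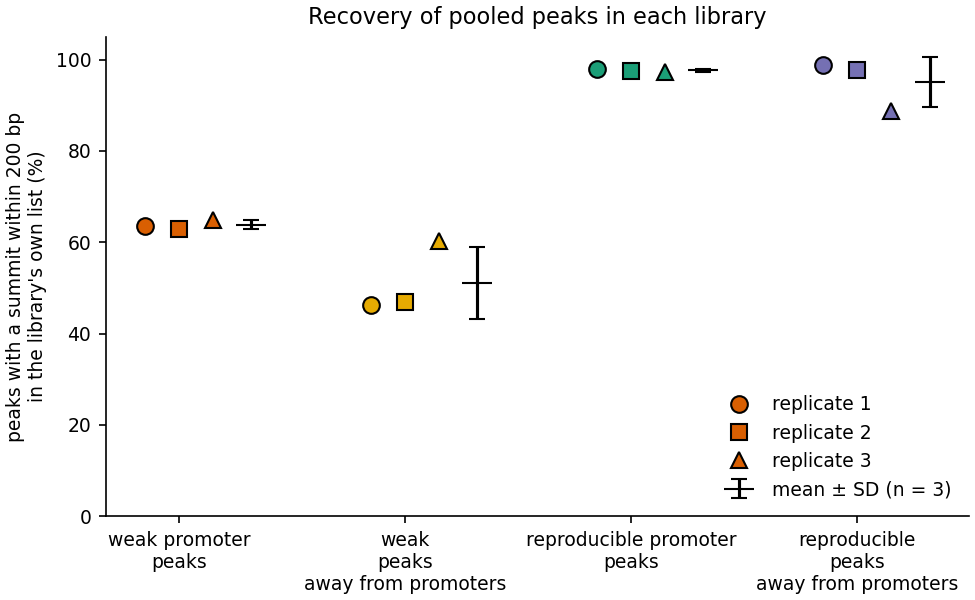
Share of peaks (%) of each set with a summit within 200 bp in the list of replicate 1 (circle), 2 (square) and 3 (triangle), with the mean ± SD over the 3 libraries. Weak promoter peaks lie at 62.9 to 65.0% in all libraries, while weak peaks away from promoters lie at 46.3 and 46.9% in replicates 1 and 2 and at 60.2% in replicate 3.

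Recovery is described by signal, although pooled signal and library lists come from the same reads and are bound to move together. From the lowest to the highest bin by signal, limited at 38.7, 54.6 and 87.1, all 3 lists held 4.06%, 10.3%, 38.5% and 70.0% of the weak promoter peaks, against 1.44%, 6.64%, 31.3% and 69.3% of weak peaks away from promoters. In the highest bin the shares of both sets differed by less than 1 point.

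Summits of weak promoter peaks were more loosely placed around the start site than those of reproducible promoter peaks. Of the 3247, 1945 lay upstream of the nearest TSS (59.9%, 95% Wilson interval 58.2 to 61.6), 1297 downstream and 5 on it. Upstream summits made up 80.2% of reproducible promoter peaks. The median position was -50 bp (quartiles -203 and 101.5) for weak and -44 bp (quartiles -102 and -9) for reproducible promoter peaks, with negative values upstream. Within 100 bp of the TSS lay 34.7% of the weak and 68.2% of the reproducible promoter summits, and beyond 250 bp lay 34.0% of the weak and 9.89% of the reproducible ones.

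Each library's own summits gave the same picture, for the 2067, 2043 and 2109 weak promoter peaks found in replicates 1, 2 and 3. These summits were matched within 200 bp of the pooled ones, could be shared by neighbouring peaks, and are not independent of the pooled summits. The upstream share was 63.3%, 61.9% and 59.4% for weak promoter peaks in replicates 1, 2 and 3, against 81.4%, 80.3% and 76.8% for reproducible promoter peaks. The share was lower in weak promoter peaks in 3 of 3 libraries, with a mean difference of -17.95 percentage points ± 0.465 (SD, n = 3; two-sided exact sign-flip permutation test, p = 0.25, again the lowest possible). At protein-coding genes with 1 start site and none of another gene within 2000 bp, 344 of 531 weak promoter summits were upstream (64.8%, 95% Wilson interval 60.6 to 68.7), against 922 of 1091 reproducible ones (84.5%, 82.2 to 86.5). Position varied with signal among the members: the upstream share was 51.7%, 54.9%, 64.0% and 69.0% from the lowest to the highest bin, and the median position was -15, -29.5, -61 and -71.5 bp.

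**Figure D2:**
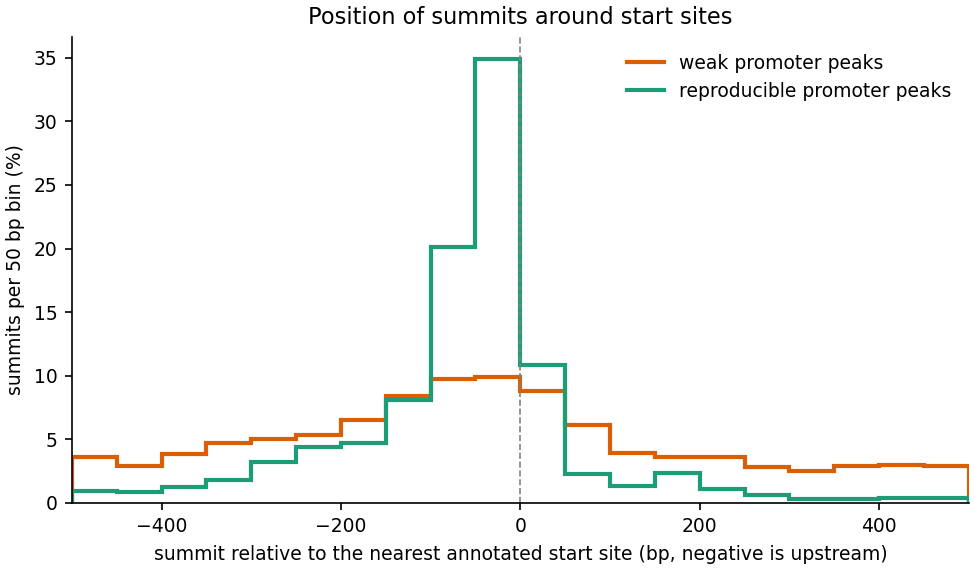
Share of summits (%) per 50 bp bin against the distance from the nearest annotated start site in bp, for the 3247 weak promoter peaks and the 7196 reproducible promoter peaks. Reproducible summits gather just upstream of the start site, with 68.2% within 100 bp, and weak summits spread over the whole window, with 34.7% within 100 bp.

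For protein-coding and non-coding RNA genes, the shares next to weak promoter peaks were near those of all annotated start sites. Reproducible promoter peaks were the set that departed from them. The nearest start site belonged to a protein-coding gene in 2608 weak promoter peaks (80.3%), against 94.8% of reproducible promoter peaks, and to a non-coding RNA gene in 514 (15.8%), against 2.86%. Among all annotated start sites, 81.6% were of protein-coding and 14.3% of non-coding RNA genes. Genes of tRNAs, which RNA polymerase III transcribes, were nearest to 66 members (2.03%), against 1.92% of reproducible promoter peaks and 1.23% of all start sites. Genes of snoRNAs were nearest to 31 (0.955%, against 1.14% of all start sites), pseudogenes to 20 (0.616%, against 1.16%) and snRNA genes to 8 (0.246%, against 0.136%).

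A divergent start site of another gene within 1000 bp lay next to 169 of the 2608 coding ones (6.48%, 95% Wilson interval 5.60 to 7.49), against 3012 of 6821 (44.2%, 43.0 to 45.3) at reproducible promoter peaks. The rule on distance removes weak peaks next to an occupied divergent promoter, which bears on this share. The start site lay inside another protein-coding gene for 608 weak promoter peaks (18.7%), against 617 reproducible ones (8.57%). Neither share was computed over all annotated start sites, so it is not known which of the sets departs from them.

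Counted by gene, 1426 of 13945 protein-coding genes (10.2%) had a weak promoter peak and no reproducible one, which is called weak alone here. A further 489 had both kinds at different start sites, 6529 had reproducible promoter peaks without weak ones, and 5501 had neither. Of the 6927 coding genes without a reproducible promoter peak, 20.6% were weak alone. Genes with both kinds had a mean of 3.53 start sites and a median length of 13163 bp, and 740 members (22.8%) lay at such genes. Weak-alone genes had 1.56 start sites and 3238 bp, genes with reproducible promoter peaks only 1.42 and 2608 bp, and genes with neither 1.16 and 1437 bp. Among non-coding genes, 521 of 3261 ncRNA genes (16.0%), 62 of 290 tRNA genes (21.4%), 39 of 269 snoRNA genes and 8 of 32 snRNA genes were weak alone, and of the tRNA genes 190 had a reproducible promoter peak. Clustered or repeated genes share peaks, since 1 summit can lie within 500 bp of several start sites.

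Gene lists were read against the 10.2% of all coding genes. The E(spl) complex, the neuronal list and the proneural and neuroblast list had the highest shares of the 26 lists, 6 of 11, 10 of 21 and 9 of 20 genes. Both ribosomal lists and the Osiris genes had 0. Most ribosomal genes had a reproducible promoter peak, which excludes them from this class, while the Osiris genes had neither kind. Lists of other genes that act in neurons lay on both sides of all coding genes. Below were dpr and DIP genes with 6.25%, chemosensory receptor genes with 5.59% and ppk channel genes with 3.45%. Above were nicotinic acetylcholine receptor genes with 40% and neuropeptide and insulin-like peptide genes with 20.7%. Each list is described by its counts, with no test. A gene with more start sites has more places at which a weak promoter peak can be counted, and no adjustment was made. The mean was 2.52 start sites per gene in the neuronal list, 1.75 in the proneural and neuroblast list and 1 in the E(spl) complex. It was 2.71 for muscle structure and 2.38 for Hox genes, against 1.41 over all coding genes.

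Of 21 neuronal genes, 10 were weak alone, which was 83.3% of those without a reproducible promoter peak (20.6% over all such coding genes). They were brp (active zone scaffold), Gad1 (GABA synthesis), ChAT and VAChT (acetylcholine synthesis and loading, which share 1 summit), the GABA receptor gene Rdl, the sodium channel gene para, the potassium channel genes Sh and Shal, the vesicle protein gene nSyb, and Ddc (dopamine and serotonin synthesis). The strongest was brp (2R, summit at 9503806, 41 bp downstream of the TSS) with a pooled signal of 118.4 and 11.8, 45.1 and 53.5 in replicates 1, 2 and 3. Gad1 had 103.9, and 31.6, 33.5 and 42.0 in the libraries, at a summit that was nearer to the start site of CG14989. Both were thus called in every library, while Ddc with 43.1 was called in none. The genes fne, elav and unc-13 had a weak promoter peak beside a reproducible one, and VGlut and ple had neither. Nicotinic acetylcholine receptor genes were weak alone in 4 of 10 cases, led by nAChRbeta2 with 128.7 and nAChRalpha6 with 80.9. Of 29 neuropeptide and insulin-like peptide genes, 6 were weak alone, led by the tachykinin gene Tk with 148.7, whose summit lay 1 bp upstream of the TSS, and by the relaxin-like gene Ilp8 with 130.6. Both were in all 3 library lists, and Akh and AstA had no promoter peak.

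Of 20 proneural and neuroblast genes, 9 were weak alone. The Snail-family genes esg, sna and wor, the proneural genes sc and l(1)sc, the atonal relative cato, the neuroblast repressor gene dpn, the adaptor gene mira and the zinc finger gene nerfin-1 made up this count. The strongest, esg (2L, summit at 15333789, 77 bp upstream), had a pooled signal of 137.4 and 21.9, 26.8 and 89.3 in replicates 1, 2 and 3, and sna had 107.2, with 13.96, 42.4 and 51.6. Of the 11 genes of the E(spl) complex, which encode repressors and other targets of Notch, 6 were weak alone. Among them, E(spl)mbeta-HLH had 150.5 and was in every list with 25.2, 47.4 and 85.8, while E(spl)m8-HLH had 116.4 and was found in replicates 1 and 3 with 15.2 and 76.1.

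Among 8 Hox genes, the selectors of segment identity, Antp and Ubx were weak alone with 78.6 and 60.6. Antp was found in replicate 1 with 20.8 and in replicate 3 with 35.1, and Ubx in replicate 3 alone with 39.98. At lab, a weak summit of 44.6 lay 480 bp downstream of 1 start site beside a reproducible promoter peak. Scr, pb, abd-A and Abd-B had reproducible promoter peaks only, and Dfd had none of either kind. Of 27 segmentation genes 2 were weak alone, the gap genes hb (134.8) and gt (119.4), both found in replicates 2 and 3. A further 20 segmentation genes had reproducible promoter peaks only. Of 19 mesoderm genes 3 were weak alone, stumps, an adaptor of FGF receptor signalling, with 150.9, sna and slou. Mef2, eya, htl and zfh1 had a weak promoter peak beside a reproducible one. Of the 22 markers of glia, hemocytes and fat body, 6 were weak alone, and the strongest were gcm2 with 94.6 and gcm with 88.5, transcription factor genes of glial and blood cell fate, both in replicate 3 alone.

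The libraries in which these peaks were called are given by list. Over the Hox, segmentation, proneural, E(spl), mesoderm and glia, hemocyte and fat body lists, grouped after their values were seen, 27 genes were weak alone. Their strongest weak promoter peak was in the list of replicate 1 for 8, of replicate 2 for 11 and of replicate 3 for 25, and 12 were in replicate 3 alone. For the 10 neuronal genes, with the shared summit of ChAT and VAChT counted for each, these counts were 8, 9 and 4, and 0 were in replicate 3 alone. They were 4, 4 and 4 for the 6 neuropeptide and insulin-like peptide genes and 2, 4 and 2 for the 4 nicotinic receptor genes. Over all 1426 weak-alone coding genes they were 948, 965 and 908, or 66.5%, 67.7% and 63.7%, and 11.2% were in replicate 3 alone. The lists hold few genes, and the difference between them was not tested.

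Lists of enzymes and structural genes followed. Of 35 glutathione S-transferase genes, 10 were weak alone, led by GstE11 (136.5) and GstS1 (108.2). This was 43.5% of the list's genes without a reproducible promoter peak, against 20.6% of all such coding genes. UDP-glycosyltransferase genes were weak alone in 7 of 35 cases, led by Ugt36D1 with 153.8 and Ugt50B3 with 106.3. Cytochrome P450 genes, which oxidise hormones and toxins, were so in 13 of 85, led by Cyp4ae1 with 128.2 and Cyp12e1 with 92.4. Of 24 muscle structure genes 7 were weak alone, led by up (troponin T) with 83.0 and Act57B (actin) with 76.6.

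Other lists had smaller shares, most of them under the 10.2%. Chemosensory receptor genes were weak alone in 10 of 179 cases, led by Gr64a with 120.5 and Gr5a with 61.9, odorant-binding protein genes in 3 of 51, led by Obp99a with 38.0 and Obp19c with 30.2, cuticle protein genes in 6 of 122, and dpr and DIP genes, which encode neuronal surface proteins, in 2 of 32, dpr4 (78.3) and dpr21 (59.4). The strongest cuticle gene, Cpr31A with 146.1, had its summit nearer to a non-coding gene, lncRNA:CR44875, and the next was Cpr49Ab with 142.9. Of the ppk channel genes 1 of 29 was weak alone (ppk7, 35.8), of gut serine protease genes 1 of 31 (Jon65Aii, 45.1), of egg shell and yolk genes 1 of 18 (Vm26Ab, 29.4), and of glue and ecdysone puff genes 2 of 28 (ImpL2, 155.2, and ImpE3, 38.7). Antimicrobial peptide genes had 2 of 14 (14.3%), Dro, whose summit of 148.9 was nearer to jef, and AttA with 34.8. Of 25 Osiris genes 0 had any promoter peak in these classes. Replication-dependent histone genes had 3 of 111, at most at 49.2, and these are near-identical repeats at which placement of reads is uncertain.

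Ribosomal protein genes were at the other end, with 0 of 92 cytosolic and 0 of 73 mitochondrial ones weak alone. Only 7 of the cytosolic genes had no reproducible promoter peak and so could be weak alone, and these had neither kind. RpS5a alone among them had a weak summit beside a reproducible one. The mitochondrial list had reproducible promoter peaks at every gene, so that no gene of it could be weak alone.

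**Figure D3:**
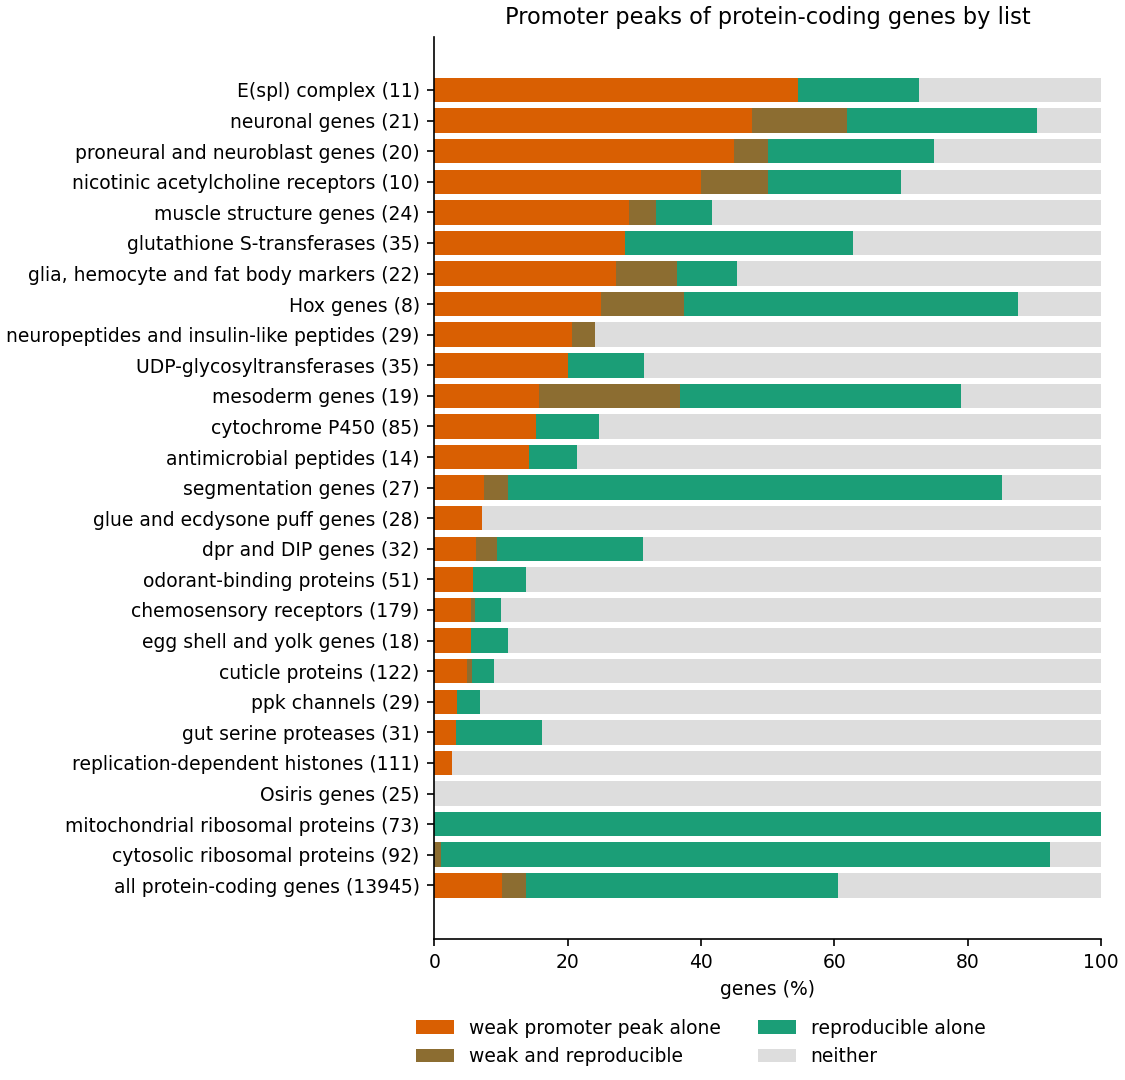
Share of genes (%) of each list, with its number of genes in brackets, that had a weak promoter peak alone, both kinds, a reproducible promoter peak alone or neither, with all protein-coding genes at the bottom. The E(spl), neuronal and proneural lists have the longest weak-alone bars, against 10.2% of all coding genes, and the ribosomal lists have none.

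Promoter elements were looked for on either strand of the sequence 100 bp to each side of a summit, and likewise around all annotated start sites. Sequence was not used by the rule. The GAGA element GAGAG was held by 38.3% of weak promoter peaks, as in the bowl sequence above, against 23.5% of reproducible promoter peaks, a difference of 14.8 percentage points (95% Newcombe interval 12.9 to 16.7). It was held by 30.4% of weak peaks away from promoters, by 40.5% of reproducible peaks away from promoters and by 24.3% of all start site windows. Against reproducible peaks away from promoters the difference was -2.17 points, with an interval of -4.72 to 0.369. Windows with 3 or more GAGA elements made up 11.7% of weak promoter peaks, against 6.52% of reproducible promoter peaks, 6.48% of weak peaks away from promoters and 19.0% of reproducible peaks away from promoters.

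The summits that each library called itself gave GAGA shares of 42.1%, 40.7% and 41.0% for weak and 23.2%, 23.6% and 23.2% for reproducible promoter peaks, in replicates 1, 2 and 3. The share was higher in weak promoter peaks in 3 of 3 libraries, by a mean of 17.95 points ± 0.899 (SD, n = 3; two-sided exact sign-flip permutation test, p = 0.25, again the lowest possible). These values cover only the 2067, 2043 and 2109 weak promoter peaks found in replicates 1, 2 and 3. A library's summit was matched within 200 bp of the pooled one, so that their windows overlap. The libraries are thus not independent support for the difference at the pooled summits. The share was higher at the summits than beside them: in windows 1000 bp to the left and right of the weak promoter summits the share was 21.5% and 23.4%. Among members it was 26.5%, 33.5%, 40.4% and 52.8% from the lowest to the highest bin by signal, and weak peaks away from promoters within the same limits had 25.7%, 28.7%, 34.7% and 44.0%. Members in 0, 1, 2 and 3 library lists held it in 25.5%, 28.6%, 39.9% and 47.4%. The lowest bin was thus near the 24.3% of all start sites and the 23.5% of reproducible promoter peaks, and each higher bin was above both.

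**Figure D4:**
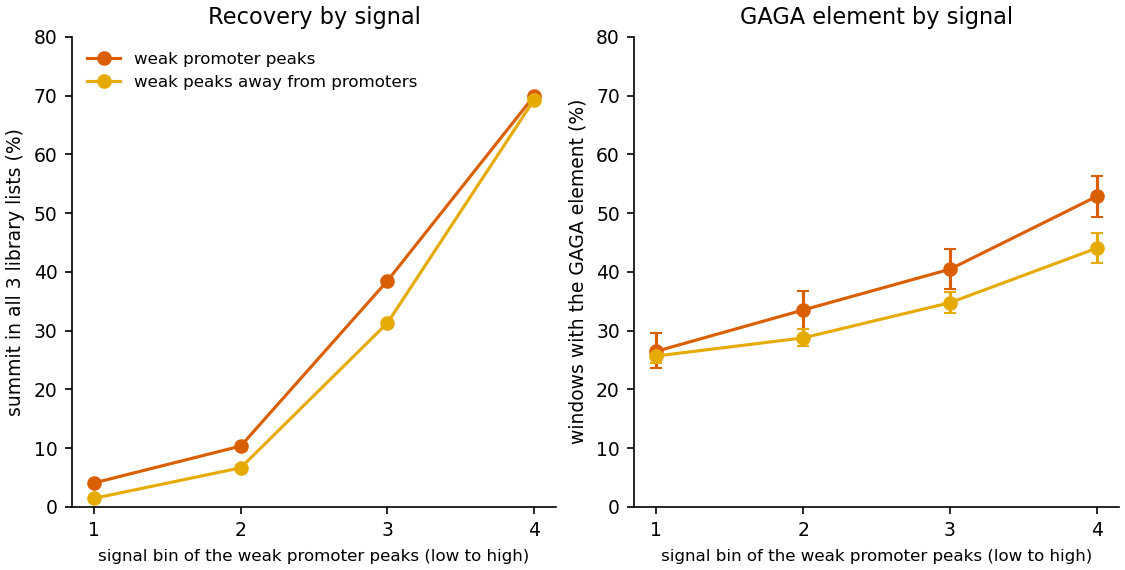
Share (%) of weak promoter peaks and of weak peaks away from promoters in each signal bin, low to high, with a summit in all 3 library lists (left) and with a GAGA element within 100 bp of the summit (right, with 95% Wilson intervals). In weak promoter peaks both measures are higher in each bin than in the one below it, reaching 70.0% and 52.8%.

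Of the elements of broadly expressed genes, the DRE, the M1BP motif and Ohler motif 7 were held by fewer weak than reproducible promoter peaks. Their shares were near those of start sites with no pooled peak within 500 bp. Windows of peaks were centred on summits and those of start sites on the TSS. Within 100 bp of the TSS lay 34.7% of weak and 68.2% of reproducible promoter summits, and the part of this in the shares was not tested. The DRE, TATCGATA, was held by 0.986% of weak promoter peaks and 12.2% of reproducible promoter peaks, against 5.45% of all start sites. The M1BP motif, GGTCACAC, was held by 0.339% and 11.6% of the same sets, against 4.76% of all start sites. Their differences were -11.3 points (95% Newcombe interval -12.1 to -10.4) for the DRE and -11.2 (-12.0 to -10.5) for the M1BP motif. Both were also lower in 3 of 3 libraries at the libraries' own summits, whose windows overlap those of the pooled summits. Ohler motif 7, CANCNCTA, was in 5.45% of weak and 16.7% of reproducible promoter peaks, against 9.94% of start sites. The E-box CAGCTG was in 12.1% and 18.0%, against 12.3% of start sites. Start sites with no pooled peak had 0.765% for the DRE, 0.359% for the M1BP motif and 5.31% for Ohler motif 7, and weak peaks away from promoters had 0.645%, 0.735% and 5.35% in the same order. The low shares are thus not particular to the weak promoter peaks.

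The other elements went both ways. The initiator TCAGTT was in 17.9% of weak and 12.7% of reproducible promoter peaks, against 21.2% of start sites, where the window is centred on the place the element occupies. The CA repeat CACACACA was in 8.35% of weak and 4.68% of reproducible promoter peaks, against 4.08% of start sites, but also in 8.63% of weak peaks away from promoters. The Zelda site CAGGTAG, bound in the early embryo, was rare, with 1.66% of weak and 0.820% of reproducible promoter peaks, against 1.04% of start sites, and 1.63% of weak peaks away from promoters. A run of As, AAAAAAAA, was in 9.67% of weak and 10.1% of reproducible promoter peaks, a difference whose sign turned with the window length. TATAAA anywhere in the window was in 18.4% of weak and 27.2% of reproducible promoter peaks, against 26.2% of start sites. Base composition also differed: the windows averaged 45.6% G and C in weak and 39.7% in reproducible promoter peaks. Its part in these shares was not tested.

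**Figure D5:**
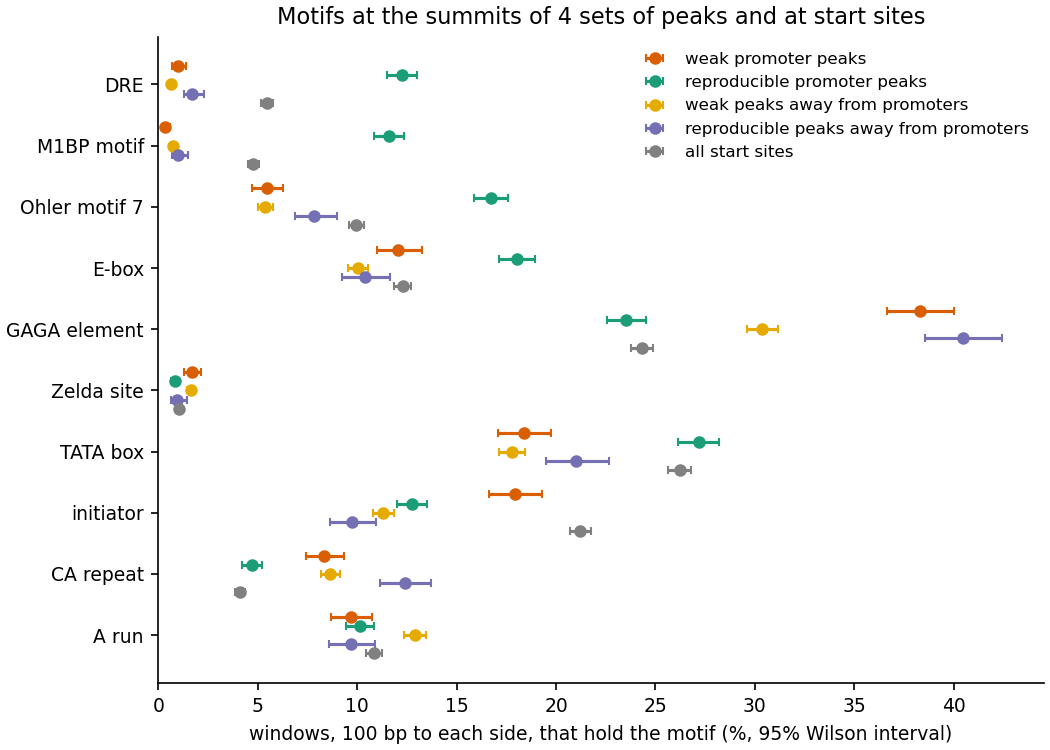
Share (%) of windows, 100 bp to each side, that hold each element, with 95% Wilson intervals, at the summits of weak promoter peaks and of the 3 other sets and at all start sites. Weak promoter peaks are high for the GAGA element (38.3%, against 23.5% of reproducible promoter peaks) and low for the DRE and the M1BP motif (under 1%, against 12.2% and 11.6%).

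A TATA box at its usual place was searched separately, as TATAAA on the gene's strand beginning 40 to 20 bp upstream of the nearest start site, as in the CG46460 sequence above. It was found at 156 of the 2622 start sites of weak promoter peaks (5.95%, 95% Wilson interval 5.11 to 6.92), against 132 of 6495 of reproducible promoter peaks (2.03%, 1.72 to 2.41) and 1026 of 10586 start sites with no pooled peak within 500 bp (9.69%, 9.14 to 10.3). Among all start sites it was 6.10%. Weak promoter peaks were higher by 3.92 points than reproducible ones (95% Newcombe interval 3.00 to 4.94) and lower by 3.74 points than sites without a peak (difference -3.74, interval -4.76 to -2.63). At protein-coding start sites alone the shares were 6.76% and 1.92% for weak and reproducible promoter peaks, against 12.4% for sites without a peak. By signal bin, low to high, the members' start sites had 7.22%, 7.23%, 3.88% and 4.66%.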

How the data were processed

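The dm6 peak lists were used: that of each replicate, that of the pooled reads and the optimal IDR set. A control entered the calling, per the file records that were deposited. Peaks came from an aligner, caller, settings and threshold of IDR not given in the sources used here. Data of the control were not analysed here. The deposited signal value of each peak is a score by the authors' caller on an unstated scale, which was used to describe and rank peaks within a list. The deposited −log10 q-value gave the threshold of 0.05. Summits were placed at the start of a peak plus its offset, as deposited. The lists give no read counts, so the depth is unknown. The pooled list had 1 peak off the 6 arms, which was left out.

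Start sites are those of 18164 genes on the arms in Ensembl release 115 (23581 distinct sites, transposable elements left out), and sequence is the RefSeq Release 6 genome. Groups and replicate numbers came from the labels. Library lists were matched to pooled summits within 200 bp, with no limit on how many pooled peaks a library summit could match. Differences between sets were tested over the 3 libraries with an exact two-sided sign-flip permutation test. Its p depends on the signs and relative sizes of the 3 differences. With all 3 of the same sign this test gives 0.25 whatever their spread. Shares have 95% Wilson intervals and differences of shares 95% Newcombe intervals, with peaks treated as independent although neighbours share reads and start sites. Shares of 10 motifs were tested over libraries at the libraries' own summits and otherwise have intervals only, and counts in 26 gene lists carry no test. Of the list symbols, 3 were matched through synonyms and the rest by name. The scripts were tested on simulated data.

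Named genes are those at the 10 strongest members, all Hox genes, the members at the limits of the rule, and of each list the 2 strongest weak-alone genes and the first 2 in alphabetical order without a promoter peak, of which some are named. Other list members are named to complete a count. Sequences are those of the strongest member in all 3 lists, off 2R, that holds the motif, and the TATA box on the gene's strand was added after the values were seen. Those of the E-box, the A run and the TATA box on either strand are not shown. The members and lists were chosen with earlier results of these data known. Python 3.11.15 with numpy 2.4.6, pandas 2.3.3, scipy 1.17.1 and matplotlib 3.10.9 was used. Alternatives are given in the closing section.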

Additional observations from a re-analysis of the deposited data

How the results depend on the processing

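The number of weak promoter peaks followed the window around the start site, with 2143 at 250 bp and 5027 at 1000 bp in place of 3247. The share in all 3 library lists, 30.7%, was 34.5% and 26.2% with those windows. It was 19.3% when summits had to match within 100 bp, 46.8% within 500 bp, 45.9% by overlap of the regions by 1 bp, and 18.6% with the best 20000 peaks of each library. Leaving out 1 library in turn gave 40.4% to 46.5%, as fewer lists had to hold the peak. The GAGA difference from reproducible promoter peaks was 2.95 points in the lowest signal bin, with an interval that includes 0, and the cause was not tested. The difference in A runs, -0.446 points, turned positive with windows of 50 bp to each side (1.23), at the libraries' own summits (0.0207) and in the second and the third signal bin (0.598 and 0.981); it is not read as a difference. The Zelda difference lost its interval above 0 in the highest bin. Upstream share, TATA box share, the other motif differences and the count of weak-alone coding genes kept their direction under the alternatives run, the last with 1130 to 1708 genes. The bins by signal and the libraries' own summits for motifs were chosen after seeing the data. The differences tested over libraries could not pass 0.05 under any setting, so that their p-values say nothing about stability. No paired analysis of groups was possible because all samples belong to 1 group; sets of peaks were compared within each library. Unknown depth limits how far an absent summit can be read.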
